A study of Mus musculus with 4 samples.

Results

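The 48 genes described here act in mitosis and in the G2 phase that leads into it. They were chosen by symbol from a table of gene counts, and each of the 48 symbols matched exactly 1 of the 54532 genes in that table. The table holds mRNA sequencing of C3H10T1/2, a line of mesenchymal stem cells (MSCs) from C3H mouse embryos, in 4 libraries. In the control library the cells received a control siRNA, and in the siDNMT1 library an siRNA against DNMT1, which maintains DNA methylation through cell division, for 48 h in both cases. In the OB library, control siRNA was followed by 3 days of osteoblast (OB) induction with ascorbic acid, β-glycerophosphate and dexamethasone, and in the siDNMT1_OB library DNMT1 siRNA was followed by the same induction. The cells of all 4 libraries were therefore transfected, and no untransfected cells are in the series. Nor does the series hold cells that were kept for the same 3 days without induction.

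Cells enter mitosis when CDK1 is activated by B-type and A-type cyclins. Chromosomes are then condensed, attached to the spindle through kinetochores, held back by the spindle checkpoint until every chromosome is attached, and separated once the anaphase-promoting complex (APC/C) marks securin and cyclin B for destruction. The mRNAs of most genes in this program accumulate in G2 and M phase, so their level in a culture is widely used as a readout of how many cells are dividing. Many of their promoters carry a cell cycle genes homology region (CHR, letters TTTGAA) and CCAAT boxes. The DREAM repressor complex and the activators MYBL2 and FOXM1 act on genes of this kind.

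The promoters show what the members share beyond their function, which the choice by symbol did not use. RefSeq promoter windows (GRCm38.p6, 250 bases before to 50 bases after the gene start) matched 41 of the 48 members and gave 43 windows, because Ect2 and Prc1 had 2 each. Cdc25c, Kif20a, Ccna2, Aurkb, Incenp, Tpx2 and Foxm1 were not matched. The letters TTTGAA, searched on both strands (TTCAAA on the other), stood in 32 of the 43 windows (74.4%), against 17.9% of all 32851 windows. The letters CCAAT, read as ATTGG on the other strand, stood in 31 windows (72.1%), against 37.4% of all windows. Both were present in 27 windows (62.8%), against 6.95% of all windows. The E2F-type letters TTTGGCGC or TTTCCCGC (GCGCCAAA or GCGGGAAA on the other strand) were found in 2 of 43 member windows (4.65%), against 1.56% of all windows. The CHR variant TTCGAA, which reads the same on both strands, was found in 3 windows (6.98%), against 1.56%.

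The promoter of the most abundant member with both motifs is shown for the mitotic entry genes (Cdk1), the chromosomal passenger complex (Cdca8), the kinetochore genes (Cenpf) and the checkpoint kinases (Bub1b). Each is written 5′ to 3′ on the strand of the gene, with the CHR letters TTTGAA and the CCAAT box, on either strand, in capitals. The windows are chr10:69352863-69353162 (minus strand) for Cdk1, chr4:124936868-124937167 (minus strand) for Cdca8, chr1:189688037-189688336 (minus strand) for Cenpf and chr2:118597961-118598260 (plus strand) for Bub1b. In the Cdca8 window the CHR shares 1 base with the last CCAAT box, so that they appear as 1 run of capitals.
Cdk1: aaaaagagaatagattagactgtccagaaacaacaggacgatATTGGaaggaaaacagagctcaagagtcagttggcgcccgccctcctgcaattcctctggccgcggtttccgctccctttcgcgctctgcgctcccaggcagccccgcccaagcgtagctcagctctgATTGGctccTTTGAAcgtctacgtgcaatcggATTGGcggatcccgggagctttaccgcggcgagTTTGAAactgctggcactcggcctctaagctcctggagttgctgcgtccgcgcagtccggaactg
Cdca8: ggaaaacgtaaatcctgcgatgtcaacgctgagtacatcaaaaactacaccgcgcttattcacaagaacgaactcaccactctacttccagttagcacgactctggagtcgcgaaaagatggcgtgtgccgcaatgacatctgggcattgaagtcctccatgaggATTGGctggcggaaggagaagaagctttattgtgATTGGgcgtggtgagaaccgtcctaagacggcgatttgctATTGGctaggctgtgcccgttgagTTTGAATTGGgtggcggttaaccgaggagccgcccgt
Cenpf: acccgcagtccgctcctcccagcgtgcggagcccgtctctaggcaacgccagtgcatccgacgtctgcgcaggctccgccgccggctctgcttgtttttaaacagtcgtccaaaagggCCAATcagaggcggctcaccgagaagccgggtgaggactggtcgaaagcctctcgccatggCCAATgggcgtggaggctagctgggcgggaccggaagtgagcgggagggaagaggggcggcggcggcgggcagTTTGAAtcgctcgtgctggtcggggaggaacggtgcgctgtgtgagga
Bub1b: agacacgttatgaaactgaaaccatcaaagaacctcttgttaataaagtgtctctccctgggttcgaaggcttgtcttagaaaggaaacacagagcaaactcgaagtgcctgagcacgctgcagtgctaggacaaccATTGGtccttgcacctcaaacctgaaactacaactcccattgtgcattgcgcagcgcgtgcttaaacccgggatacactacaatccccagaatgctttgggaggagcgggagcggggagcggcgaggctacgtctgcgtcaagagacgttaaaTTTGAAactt

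With positions counted from the gene start, the first bases of the CHR letters lie at -71 and -15 in Cdk1, at 13 in Cdca8, at 2 in Cenpf and at 40 in Bub1b. Over all member windows, with sites counted per window, there were 42 CHR sites, of which 32 were on the strand of the gene and 29 (69.0%) lay between -60 and 30. In all windows 24.8% of the CHR sites lay in that zone, which was chosen after the positions were seen. The 71 CCAAT sites of the members had a median position of -65, and 60.6% of them lay between -120 and -20, against 45.0% in all windows. This zone was not set in advance either. The windows of Ect2 and of Prc1 overlap, so that these sites stand for 39 distinct CHR and 67 distinct CCAAT sites. Such matches are letters in a window and do not show that a factor binds there.

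**Figure D1:**
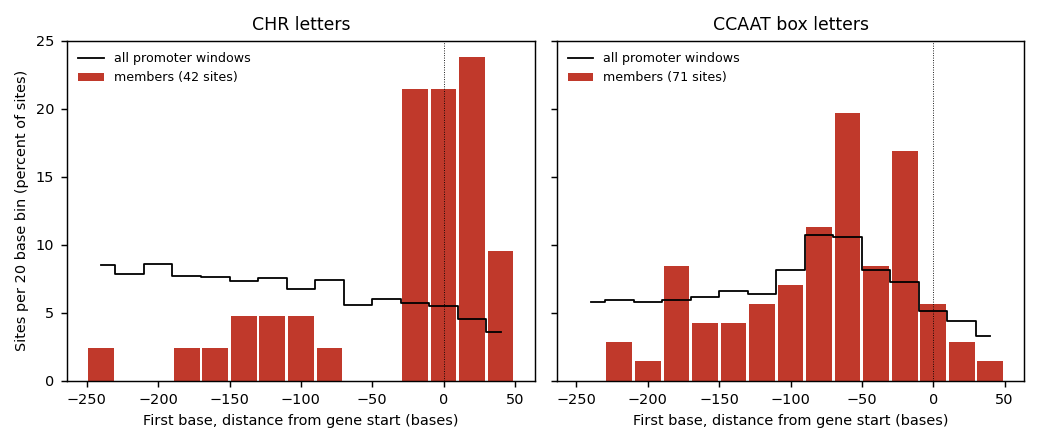
Position of the CHR letters (left) and the CCAAT letters (right) in the promoter windows of the members. Bars give the percent of member sites in each 20 base bin of distance from the gene start, and the black line gives the same for all promoter windows. The CHR sites of the members gather around the start, whereas those of all windows do not.

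The libraries held 22296046 to 27367792 counted reads, and 13233 genes with a mean CPM (counts scaled to library size) of at least 1 were compared. All 48 members passed that limit, with at least 125 counts each in OB, 297 in siDNMT1_OB, 763 in siDNMT1 and 912 in control. Each condition was represented by 1 library, so no spread between replicates exists and no p-value is given for a difference between 2 libraries. The p-values given come from 1 additive fit over the 4 libraries, whose error is no spread between replicates. Intervals in parentheses after a log2 value are exact 95% intervals that cover counting error only. A gene was called higher or lower where its log2 fold change reached 1, the size threshold of the study. All 10 mesenchymal marker genes were detected in every library. Of 10 markers of epithelial, blood, endothelial and neural cells, Epcam, Sox10 and Adgre1 had a count of 0 in every library, and the summed level of the 10 was 5.22 to 17.4 CPM, against 27982 to 34407 CPM for the mesenchymal markers. The largest part of that sum was Tubb3, a neuronal tubulin, in every library but OB, where Cd68 was above it (2.61 against 1.95 CPM). Tubb3 was called in the directions of the members, at -2.00 in OB against control and 1.24 in siDNMT1_OB against OB. Its part in the results was not tested.

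Dnmt1, the target of the siRNA, had 7195, 3375, 1931 and 2492 counts in control, siDNMT1, OB and siDNMT1_OB. It was lower in siDNMT1 than in control by a log2 of 1.01 (fold change -1.01, interval -1.07 to -0.95). It was not lower in siDNMT1_OB than in OB, where the log2 fold change was 0.13 (0.04 to 0.21). The label of the siDNMT1_OB library is therefore not matched by a Dnmt1 level below that of OB, and every direction below that rests on it refers to the library labelled siDNMT1_OB. Dnmt1 was already lower in OB than in control (-1.63), with 85.4 CPM against 265. Set against siDNMT1 (132 CPM), the library labelled siDNMT1_OB (93.1 CPM) had a Dnmt1 log2 fold change of -0.50.

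Across the 4 libraries the 48 genes moved as a block. Together they took 0.640% of all counts in control (0.637 to 0.643%), 0.619% in siDNMT1 (0.616 to 0.622%), 0.142% in OB (0.141 to 0.144%) and 0.281% in the library labelled siDNMT1_OB (0.279 to 0.283%). Every one of the 48 had its lowest level in OB, its next lowest in the library labelled siDNMT1_OB and its top levels in the uninduced libraries, of which control was the highest for 36 and siDNMT1 for 12. The median member stood at 102 CPM in control and 94.1 in siDNMT1, against 22.1 in OB and 45.9 in the library labelled siDNMT1_OB. In sequencing of whole cultures, fewer dividing cells and less of these mRNAs in each dividing cell cannot be told apart.

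**Figure D2:**
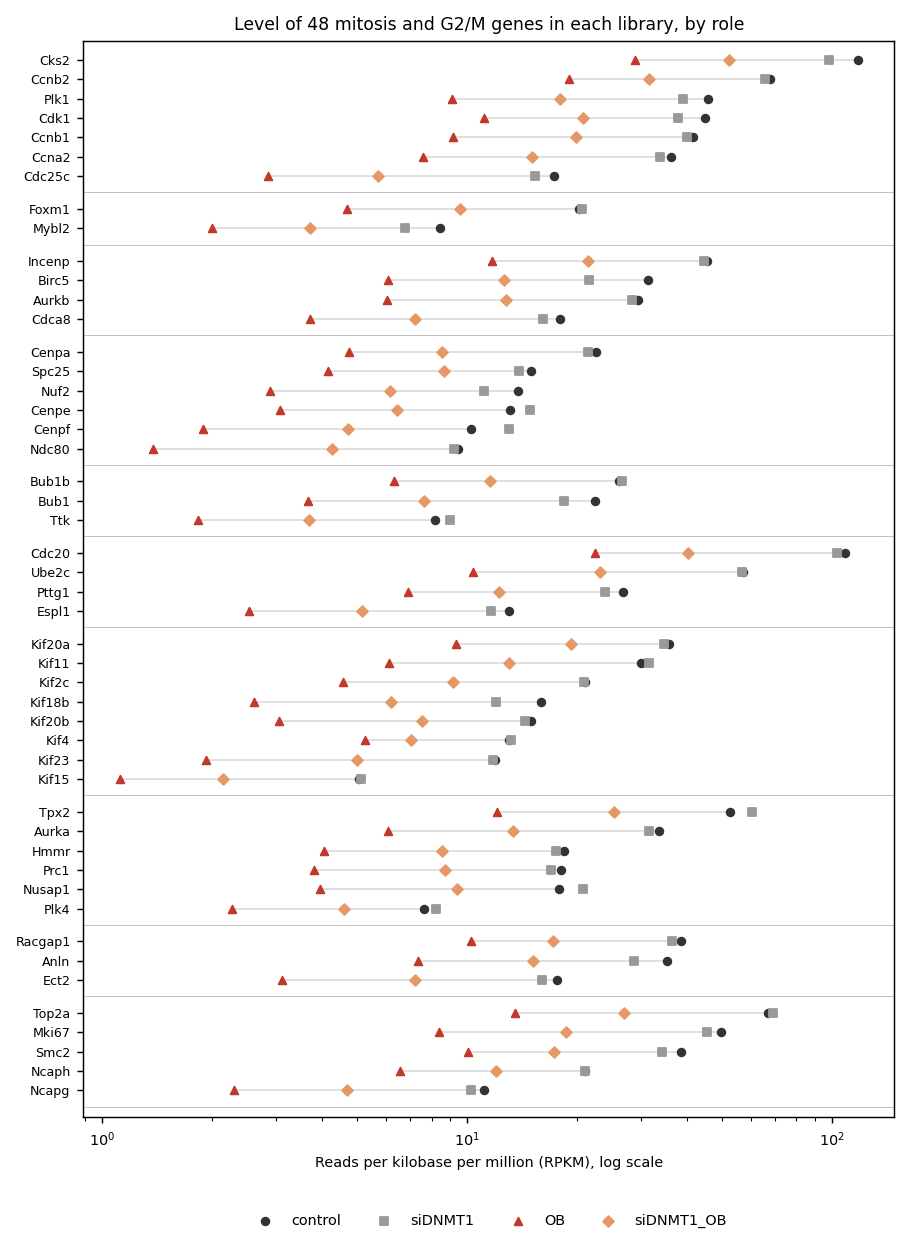
Level of each member in each library, in RPKM (CPM per kilobase of exon) on a log axis, with genes ordered by role and by level within a role. Each symbol is 1 library. For all 48 genes the OB library is at the left, the library labelled siDNMT1_OB follows, and the uninduced libraries are at the right.

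After OB induction with control siRNA the whole set was lower. The OB cells had also spent 3 more days in culture than the control cells. Induction and time in culture therefore cannot be told apart here. The same holds for siDNMT1_OB against siDNMT1 and for the induction term of the additive fit. All 48 members were called lower in OB than in control, where 7.1% of all tested genes were. The median log2 fold change was -2.25, that is 4.75-fold lower, against 0.01 over all tested genes, and it ran from -2.76 for Ndc80 to -1.30 for Kif4. The standard deviation among the members was 0.28, against 0.95 among all tested genes. In terms of level, OB kept a median of 21.0% of the control level (14.6 to 40.5%). Of the 13233 tested genes, members included, 154 were at or below the median member.

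Between the libraries labelled with DNMT1 siRNA, the difference after induction was smaller in every member. In the library labelled siDNMT1_OB against siDNMT1 the median was -1.13, and the values ran from -1.46 for Cenpf to -0.68 for Spc25. The call reached 32 of the 48 members, against 2.71% of all tested genes. The median lies near the threshold, with 31 members within 0.2 of it, so that the call separates members with like values. A median of 45.8% of the uninduced level was kept (36.2 to 62.5%). For all 48 members the counting intervals of this fold change and of OB against control did not overlap. Of all tested genes, 36.4% had intervals apart in either direction. The order seen in the members, lower in both comparisons and lower still in OB against control, was found in 11.1%. Across the 48 members the log2 fold changes of OB against control and of siDNMT1_OB against siDNMT1, which share no library, had a Pearson r of 0.53 and a Spearman rho of 0.52. These are values across genes, which are not independent replicates.

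**Figure D3:**
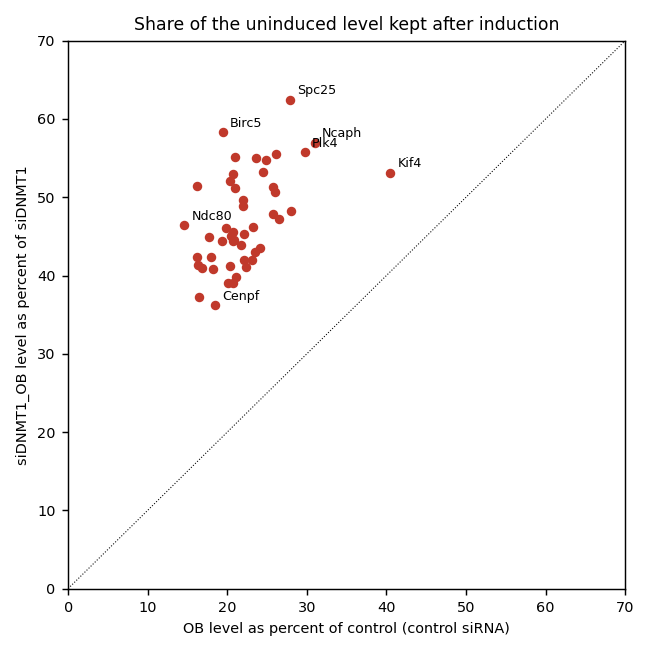
Share of the uninduced level that each member kept after induction, with control siRNA on the horizontal axis (14.6 to 40.5%) and in the library labelled siDNMT1_OB on the vertical axis (36.2 to 62.5%), both in percent of the matching uninduced library. Each point is 1 gene and the dotted line marks equal shares. All 48 points lie above the line, and Kif4 lies nearest to it.

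Without induction, DNMT1 siRNA was accompanied by little difference in these genes. The median log2 fold change of siDNMT1 against control was -0.07, and no member was called lower or higher, where 1.37% and 1.97% of all tested genes were. The lowest value was -0.53 for Birc5 and the highest was 0.34 for Cenpf. The counting interval lay below 0 for 23 members, above 0 for 8 and across 0 for 17. Of all tested genes, 26.8% lay below 0 and 26.0% above in the same sense. The sign of such small values depends on the scaling: 36 members were negative with the scaling used here, and 31 with upper quartile scaling.

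After induction, all 48 members were higher in the library labelled siDNMT1_OB when set against OB. The median was 1.02, that is 2.03-fold, from 0.42 for Kif4 to 1.62 for Ndc80, against 0.01 over all tested genes. The call reached 29 members, against 2.36% of all tested genes, and 37 members lay within 0.2 of the threshold. The counting intervals of all 48 members lay above 0, as did those of 27.6% of all tested genes. The library labelled siDNMT1_OB still held a median of 44.4% of the control level (33.0 to 60.3%). The comparisons of OB with control and of siDNMT1_OB with OB use the same OB library, which therefore enters both.

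By their labels the 4 libraries form a design with 2 factors, in which siDNMT1_OB against OB can be set beside siDNMT1 against control. The difference of these log2 fold changes is called the difference between siRNA effects by the labels alone, since Dnmt1 was lower in siDNMT1 but not in the library labelled siDNMT1_OB. The median difference between the log2 fold changes was 1.11, from 0.39 for Kif4 to 1.66 for Ndc80, and it was 1 or above for 30 members, against 3.27% of all tested genes. For Dnmt1 itself it was 1.13. An edgeR quasi-likelihood fit with siRNA and induction as additive terms, which has 1 residual degree of freedom takes the departure from additivity as its error and includes the library labelled siDNMT1_OB, called all 48 members lower for the induction term, with adjusted p-values of 0.0122 to 0.0441. It called 9.09% of all tested genes lower at an adjusted p under 0.05. For the siRNA term the same edgeR fit called 0 members, with 4 at an unadjusted p under 0.05. That term averages over a near-zero effect and a positive one, and 0 of the 13233 tested genes passed it, with 1148 at an unadjusted p under 0.05.

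**Figure D4:**
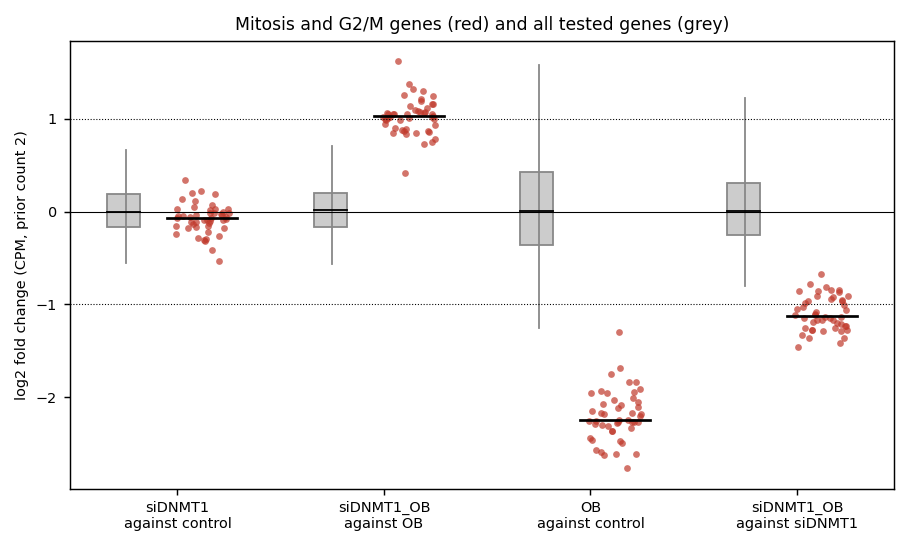
Log2 fold changes of the 48 members (red points, with a black line at the median) and of all 13233 tested genes (grey box for the middle quartiles, whiskers from the 5th to the 95th percentile, black line at the median). Dotted lines mark the thresholds of 1 and -1. The members lie around 0 in the first comparison and, but for a few genes, beyond the whiskers in the other comparisons.

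The 7 genes of mitotic entry were all called lower in OB than in control, against 7.1% of all tested genes. In siDNMT1_OB against OB 1 of them, Ccnb1, was called higher, against 2.36% of all tested genes. Cdk1, the kinase that drives entry into mitosis, had 6008, 4798, 1245 and 2746 counts in control, siDNMT1, OB and siDNMT1_OB. It was lower in OB by a log2 of 2.01 (fold change -2.01, interval -2.10 to -1.92) and higher in the library labelled siDNMT1_OB, against OB, by 0.90 (0.80 to 1.00). Ccnb1, its main cyclin partner, had 4771, 4329, 875 and 2243 counts, with log2 fold changes of -2.18 (-2.29 to -2.08) in OB and 1.11 (1.00 to 1.23) between the induced libraries. The uninduced libraries were the high ones for both, and OB was the low one. The group of 7 had medians of -0.17 without induction, -2.18 for OB against control and 0.99 between the induced libraries. Ccnb2, the other B-type cyclin, differed least in this group (-1.83 and 0.73), and Cdc25c, the phosphatase that activates CDK1, was lowest in OB (-2.59), from 125 counts. Plk1, a kinase with roles from entry to cytokinesis, Cks2, a small CDK-binding subunit, and Ccna2, the A-type cyclin, lay between, at -2.33, -2.03 and -2.26. All 7 were slightly lower in siDNMT1 than in control, from -0.26 for Cks2 to -0.05 for Ccnb2. The intervals of 5 lay below 0, as did those of 26.8% of all tested genes.

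Of the transcription factors of this program, Foxm1 had 3160, 3047, 611 and 1470 counts and Mybl2 had 1060, 801, 209 and 460 counts in the same order of libraries. Both act on promoters with CHR letters, and both followed the genes that they are known to activate. In OB against control their log2 fold changes were -2.11 (-2.24 to -1.98) for Foxm1 and -2.07 (-2.30 to -1.86) for Mybl2, and between the induced libraries they were 1.02 and 0.89. Without induction they parted, with 0.03 (-0.04 to 0.10) for Foxm1 and -0.32 (-0.46 to -0.19) for Mybl2.

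The chromosomal passenger complex corrects faulty attachments of chromosomes and later works at the cleavage furrow. Its scaffold Incenp had 3971, 3692, 854 and 1846 counts, and Birc5 (survivin), which brings the complex to centromeres, had 2889, 1883, 468 and 1147 counts. Birc5 had the lowest value of all members without induction (-0.53, interval -0.62 to -0.45), while Incenp was at -0.02 (-0.09 to 0.04). In OB against control Birc5 was at -2.36 and Incenp at -1.95. The kinase Aurkb (-2.28) and the subunit Cdca8 (borealin, -2.27) lay between them. Because Birc5 was already lower in siDNMT1, it kept 58.3% of the uninduced level in the library labelled siDNMT1_OB, the share next to the highest. Its difference between the siRNA effects was 1.58.

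The centromere and kinetochore genes spanned the widest range of fold changes between induced libraries outside the kinesins. Cenpf, a large protein of the outer kinetochore, had 4296, 5144, 659 and 1947 counts, and Cenpa, the histone H3 variant that marks centromeres, had 3579, 3221, 628 and 1341. Cenpf was the member with the highest value without induction (0.34, interval 0.28 to 0.40) and kept the smallest share in the library labelled siDNMT1_OB, 36.2% of siDNMT1. Cenpe, a kinetochore motor, had 3062, 3295, 599 and 1481 counts and was likewise higher in siDNMT1 (0.19, interval 0.12 to 0.26).

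The NDC80 complex links kinetochores to microtubules and has 4 subunits, of which Ndc80, Nuf2 and Spc25 are members and Spc24 was taken from a list of other mitosis genes. Ndc80 (chr17:71496100-71526857, minus strand) had 1666, 1532, 203 and 743 counts, the lowest log2 fold change of the 48 in OB (-2.76, interval -2.99 to -2.56) and the highest between the induced libraries (1.62, interval 1.40 to 1.86). As RPKM, which is CPM per kilobase of exon, the levels of Ndc80, Nuf2 and Spc25 were 9.46, 13.8 and 15.0 RPKM in control and 1.38, 2.89 and 4.16 RPKM in OB. In the library labelled siDNMT1_OB they were 4.28, 6.15 and 8.65 RPKM. Subunits of 1 complex therefore differed in how much was kept: OB held 14.6% of the control level of Ndc80, 20.9% of Nuf2 and 27.8% of Spc25, and the log2 fold change of Spc24 was -1.72. The counting intervals of Ndc80 and Spc25 (-2.03 to -1.66) do not overlap, while replicate spread is unknown.

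Of the spindle checkpoint kinases, Bub1b (BubR1) had 3034, 2920, 610 and 1327 counts and Bub1 had 2646, 2057, 360 and 887. Bub1 was lower in OB than Bub1b was, with log2 fold changes of -2.61 (-2.78 to -2.46) and -2.05 (-2.18 to -1.93). Ttk (MPS1), the kinase at the top of the checkpoint, had 1093, 1132, 204 and 486 counts and was at -2.15. Without induction Bub1 was lower (-0.28, interval -0.36 to -0.20), Ttk was higher (0.13, interval 0.01 to 0.25), and the interval of Bub1b crossed 0 (0.03, interval -0.05 to 0.10).

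Sister separation is set off by the APC/C with its activator Cdc20 and its ubiquitin-conjugating enzyme Ube2c, through loss of securin (Pttg1), which frees separase (Espl1). Cdc20 had 5497, 4945, 948 and 2015 counts and Ube2c had 4025, 3772, 610 and 1608. Their log2 fold changes in OB were -2.27 (-2.37 to -2.17) and -2.46 (-2.59 to -2.34). Espl1 was at -2.36 and Pttg1 at -1.95. The securin and separase mRNAs stood at 26.7 and 13.1 RPKM in control, 6.88 and 2.53 RPKM in OB, and 12.3 and 5.17 RPKM in the library labelled siDNMT1_OB.

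The list of 83 other mitosis genes, all of which were tested, allowed subunits of the same machines to be set beside them. Cdc20 and Ube2c stood at 20.7% and 18.2% of control in OB, but the core APC/C subunits of the list stayed nearer to control. Anapc4 had 2995, 2757, 2485 and 2885 counts and a log2 fold change of -0.01 in OB, Cdc23 was at -0.19 and Cdc27 at -0.53, and Cdc16 was higher, at 0.47. Between the induced libraries the same 4 subunits were at -0.03, 0.06, 0.07 and 0.09. Cdc23 overlaps the member Kif20a on the opposite strand, which bears on the value of both.

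**Figure D5:**
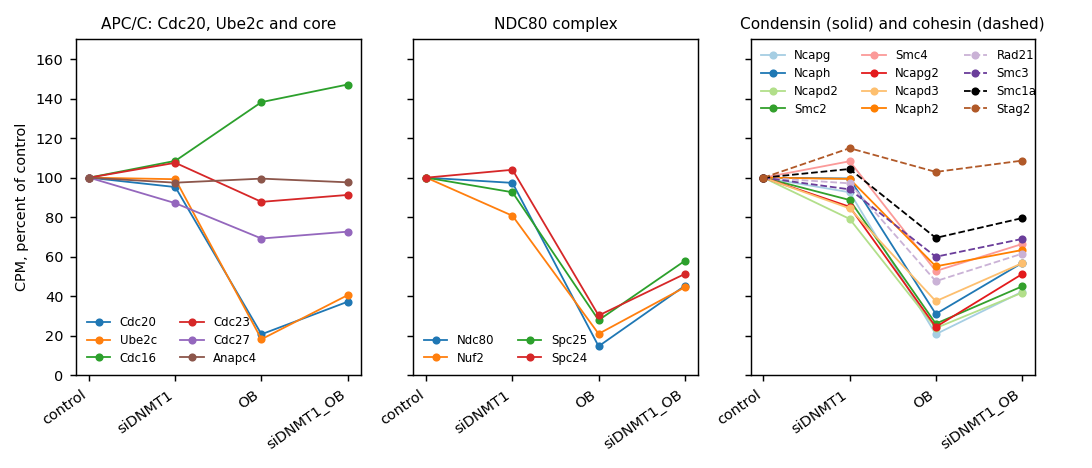
CPM in percent of control for subunits of the APC/C, the NDC80 complex, and condensin and cohesin. Each line joins the 4 libraries of 1 gene and marks no time course. Cdc20 and Ube2c drop in OB while Anapc4, Cdc16 and Cdc23 stay near or above control, and most condensin genes lie below the cohesin genes in OB, with Smc4 and Ncaph2 above Rad21.

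The 8 kinesins are motors of the spindle and of the midzone. Kif11 (Eg5), which pushes spindle poles apart, had 3931, 3908, 667 and 1682 counts, and Kif20a, which carries the passenger complex to the midzone, had 3678, 3380, 802 and 1961. Kif23, a subunit of centralspindlin, had 2555, 2386, 344 and 1056 counts and the second lowest value of the 48 in OB (-2.62, interval -2.80 to -2.47). Of the others, Kif18b, a regulator of astral microtubules, was at -2.61, Kif20b at -2.29, Kif2c, a microtubule depolymerase, at -2.20 and Kif15 at -2.17. Kif11 was at -2.29 and Kif20a at -1.93. Kif18b was also lower without induction (-0.41, interval -0.52 to -0.30), next after Birc5, and had a difference between siRNA effects of 1.65.

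Kif4 (chrX:100625737-100727214, plus strand), a chromosome-bound kinesin, was the exception in size. It had 1946, 1871, 657 and 1038 counts, a log2 fold change of -1.30 (-1.43 to -1.18) in OB and 0.42 (0.27 to 0.56) between the induced libraries. Its exons overlap those of Pdzd11 on the opposite strand, which had 859, 751, 1255 and 1239 counts and was higher in OB (0.81). The library kit does not mark strand, so reads from the shared stretch cannot be assigned to either gene. The part of that overlap in the value of Kif4 was not tested. Ccna2, Cdca8, Cdc20, Kif20a, Nusap1, Prc1 and Ncapg also overlap an opposite-strand gene with at least 10% of their counts, and their values are uncertain for the same reason. Processed pseudogenes drew few counts, with 12 for Ccnb1-ps, 125 for Ccnb2-ps and 0 for Kif4-ps over the 4 libraries. Without the 8 overlapping genes all of the other 40 were called lower in OB, against 7.1% of all tested genes.

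The spindle and centriole factors held 3 of the 8 members whose interval lay above 0 in siDNMT1 against control. Tpx2, which activates Aurora A on the spindle, had 6658, 7228, 1281 and 3174 counts, and Prc1, which bundles midzone microtubules, had 4042, 3590, 708 and 1920. Nusap1, a microtubule-bundling protein, had 1965, 2157, 362 and 1022 counts, and Plk4, the kinase of centriole duplication, had 1416, 1447, 351 and 843. Without induction Tpx2 was at 0.20 (0.15 to 0.25), Nusap1 at 0.22 (0.13 to 0.31), Plk4 at 0.11 (0.01 to 0.22) and Prc1 at -0.09 (-0.15 to -0.02). In OB against control Aurka (Aurora A) was at -2.47, Prc1 at -2.25, Hmmr at -2.18, Nusap1 at -2.17, Tpx2 at -2.11 and Plk4 at -1.74. All 6 were called higher in the library labelled siDNMT1_OB when set against OB, from 1.02 for Plk4 to 1.25 for Nusap1. The share of all tested genes called higher there was 2.36%.

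The other members that were above 0 without induction were Top2a, Kif11, Foxm1, Bub1b, Kif4 and Kif15. Top2a was at 0.04 (0.01 to 0.08) and Kif11 at 0.07 (0.01 to 0.14). Kif15 had 1515, 1447, 279 and 634 counts, and its interval crossed 0 (0.02, interval -0.09 to 0.12), as did those of Foxm1, Bub1b and Kif4.

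Of the cytokinesis genes, Anln (anillin), the scaffold of the contractile ring, had 8682, 6659, 1501 and 3681 counts and Racgap1, the other centralspindlin subunit, had 7428, 6605, 1644 and 3262. Anln was lower in siDNMT1 (-0.30, interval -0.35 to -0.25), and its difference between siRNA effects was 1.35, against 0.83 for Racgap1. In OB against control Ect2, the activator of RhoA at the cell equator, was at -2.49, Anln at -2.27 and Racgap1 at -1.91. The 2 centralspindlin subunits thus differed, with Kif23 at -2.62 and Racgap1 at -1.91 (-1.99 to -1.84), and their intervals did not overlap.

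The most abundant members by CPM act on chromosome structure. Top2a, which untangles sister DNA, had 16392, 15963, 2754 and 6506 counts, and Mki67 (Ki-67), which coats mitotic chromosomes and is a common marker of proliferation, had 13598, 11757, 1909 and 5034. In OB against control they were at -2.31 (-2.37 to -2.25) and -2.57 (-2.64 to -2.50), and between the induced libraries at 1.00 (0.93 to 1.06) and 1.16 (1.08 to 1.23). Per exon length Cks2 was above both, with 118 RPKM in control and 28.8 RPKM in OB. The condensin genes were less even: Ncapg was at -2.27, Smc2 at -1.94 and Ncaph at -1.69 (-1.82 to -1.56). Of the other condensin genes, which are no members, Ncapd2 was at -2.07, Ncapg2 at -2.03, Ncapd3 at -1.41, Smc4, the partner of Smc2, at -0.92 and Ncaph2 at -0.86. The cohesin genes were at -1.07 for Rad21, -0.74 for Smc3, -0.52 for Smc1a and 0.04 for Stag2.

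The 83 other mitosis genes as a list had medians of -0.06 without induction, -1.96 for OB against control and 0.81 between the induced libraries. In OB against control 63 of the 83 were called lower, against 7.1% of all tested genes, and none higher, against 1404 of the 13233. Between the induced libraries 29 were called higher, against 2.36% of all tested genes. Those furthest from 0 in OB were Cdca2 (-2.67), Fbxo5 (-2.57), an inhibitor of the APC/C, and Ccnf (-2.55), a ubiquitin ligase subunit. The 3 genes above 0 in OB, Cdc16, Psrc1 (0.32) and Stag2, were named after their values were seen.

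For 40 genes of DNA replication, the step before G2, the medians were -0.34 without induction, -1.89 for OB against control and 0.78 between the induced libraries. The counting interval without induction lay below 0 for 34 of these 40 and above 0 for none. Of the 48 mitosis genes, 23 lay below and 8 above, and of all tested genes 26.8% lay below and 26.0% above. In the library labelled siDNMT1_OB against siDNMT1, 6 of the 40 replication genes and 32 of the 48 mitosis genes were called lower. The medians of the replication and mitosis genes were -0.72 and -1.13, and 2.71% of all tested genes were called lower. In their promoters, 18.4% of 38 replication windows held TTTGAA, 52.6% held CCAAT and 26.3% held an E2F type. The 74 windows of the other mitosis genes lay between these and the members for TTTGAA (45.9%), CCAAT (63.5%) and the E2F types (9.46%), and 31.1% held both TTTGAA and CCAAT. These are values side by side without replicates. Of 18 genes often used as references, 3 were called lower in OB (Tfrc, Pgk1 and Gapdh), against 7.1% of all tested genes. The list had medians of -0.28 for OB against control and 0.01 between the induced libraries.

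Among the member windows, the 32 with TTTGAA were at a median of -2.27 for the log2 fold change of OB against control (-2.76 to -1.30) and the 11 without had -2.09 (-2.61 to -1.69). The ranges overlap over most of their length. Across the 48 genes the log2 mean RPKM and the log2 fold change of OB against control had a Pearson r of 0.11.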

How the data were processed

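The deposited table holds whole-number read counts per gene for 4 libraries, which the authors made from paired-end poly(A) libraries (TruSeq RNA Sample Preparation v.2 kit, HiSeq 2500) with Trimmomatic, HISAT2 and featureCounts on mm10. For the mRNA sequencing, tool versions, the strand setting and the treatment of multi-mapped reads are not given in the sources used here. The exon length per gene comes from the same deposited table. Library totals were 22296046 to 27367792 counts. The members and gene lists were chosen with earlier results of these data known.

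Genes with a mean of at least 1 CPM were kept (13233 of 54532), TMM factors were computed on them (edgeR 4.0.16, factors 0.991 to 1.01), and log2 fold changes were taken from CPM with a prior count of 2. RPKM used the exon length. Intervals are Clopper-Pearson intervals of the count ratio at 95%, and reads without molecular identifiers are not independent molecules. The additive edgeR fit used Benjamini-Hochberg adjustment over all tested genes. Scripts were checked on simulated counts. Counts per library were given for the 2 most abundant members of each role, the 2 furthest from 0 and the 1 nearest to 0 in OB against control, and members that went against the majority, and further members were added after their values were seen. Alternatives were DESeq2 1.42.0 size factors, total and upper quartile scaling, other filters, prior counts and thresholds, a call that also needs the counting interval, and leaving out overlapping genes. The analysis ran in R 4.3.3 and Python 3.11.15.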

Additional observations from a re-analysis of the deposited data

Results flagged for a closer look

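By the labels, the DNMT1 siRNA comparison of the 48 genes was not alike before and after induction: in each of the 48 the log2 fold change of siDNMT1_OB against OB was above that of siDNMT1 against control, and the median difference was 1.11. With 1 library per condition this difference was not tested. In 23 members, Birc5, Mki67 and Cdk1 among them, the counting intervals lay below 0 without induction and above 0 after it, as did those of 7.90% of all tested genes. As all 48 lay above 0 after induction, this count repeats the 23 below 0 without it, where signs depend on the scaling (36 of 48 negative here, 31 with upper quartile scaling). The Dnmt1 level of the library labelled siDNMT1_OB was not below that of OB, and its part in these values was not tested.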

How the results depend on the processing

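The alternatives changed scaling, filter, prior count, threshold, the use of the counting interval and the overlapping genes. Under the other filters all 48 members passed and no count or median of the members moved. Neither the threshold nor the counting interval bears on a median. With a threshold of 1.5-fold in place of a log2 of 1, 47 members were called higher in siDNMT1_OB against OB (6.73% of all tested genes), 48 were called lower in siDNMT1_OB against siDNMT1 (8.90%), and 47 had a difference between the siRNA comparisons of at least that size (8.89%), because most members lie near a log2 of 1. Under the other alternatives that kept a log2 of 1 and all 48 members, 23 to 30 were higher in siDNMT1_OB against OB. A difference between the siRNA comparisons of 1 or above was then found in 27 to 30. Without the overlapping genes these counts were 25 and 24 of the remaining 40 members. The median of OB against control ran from -2.25 to -2.20, and that of siDNMT1 against control from -0.08 to -0.04, with 31 to 36 of 48 members negative over the scalings. No paired analysis was possible because each condition has 1 library and the labels carry no replicate numbers, and no library could be left out for the same reason. Depth limits the smallest changes, as the counting interval reached a median of 0.0803 to either side without induction and 0.152 between the induced libraries.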
